A study of Mus musculus with 451 samples.

Results

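Mohawk-null tendon cells that expressed tenocyte genes were divided by whether their own library held reads of Spp1, the gene of osteopontin, and every other gene was compared between the groups. Single cells had been isolated from tail tendons of 4-week-old C57BL/6 mice, wild type (WT) or lacking the tendon transcription factor Mohawk (Mkx-/-), by digestion with collagenase I, and each was captured and sequenced in a well of a Fluidigm C1 high-throughput chip. The series held 451 cells, of which 227 were WT and 224 were Mkx-/-. A cell was gated as a tenocyte when the mean of its log2(CPM + 1) values for Tnmd and Fmod reached 10, CPM being read counts scaled to a common library size of 1e+06 reads. Tnmd encodes tenomodulin, a membrane protein of mature tendon cells, and Fmod encodes fibromodulin, a small proteoglycan of collagen fibrils. The gate kept 84 of the 224 Mkx-/- cells, of which 56 had at least 1 Spp1 read and 28 had none. In WT, 78 of 227 cells passed the same gate, 22 of them with Spp1 reads. The labels do not name the mouse or the chip that a cell came from, nor how many mice were pooled, so each genotype counted as 1 sample. Cells are not replicates, no test was made, and the intervals given are 95% intervals that cover counting error only.

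Osteopontin is a secreted, phosphorylated glycoprotein that binds integrins and CD44 and, in bone and in mineralising soft tissue, binds apatite crystals. It is made by osteoblasts, osteoclasts and macrophages and also by fibroblasts of injured or mineralising tissue. Tenocytes are the matrix-producing cells between the collagen fibres of tendon, and ectopic cartilage and bone in tendon are known to contain osteopontin. Since Spp1 defines the groups compared here, the window before its start is shown, with the core letters recognised by RUNX factors in capitals. It is the 250 bases upstream of the RefSeq start of Spp1 on the plus strand of GRCm38.p6, chr5:104434861-104435110.
Spp1 upstream window: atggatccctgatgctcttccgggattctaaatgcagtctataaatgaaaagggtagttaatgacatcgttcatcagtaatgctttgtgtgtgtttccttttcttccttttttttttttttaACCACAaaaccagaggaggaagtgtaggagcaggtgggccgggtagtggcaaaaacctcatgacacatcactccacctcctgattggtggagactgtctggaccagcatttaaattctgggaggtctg
Both strands were searched for TGTGGT, the RUNX core, and 1 match was found, read as ACCACA on the plus strand from position -128 relative to the start. Of 32851 mouse windows of the same length, 14% hold this word. The AP-1 word TGANTCA of FOS and JUN proteins had 0 matches in the window and is held by 6.75% of all windows. The E-box word CANNTG, read by basic helix-loop-helix factors, had 1 match at position -98, which does not overlap the RUNX word, and 66.2% of windows hold it. These matches describe letters and not bound sites.

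Spp1 reads were present in 66.7% of the gated Mkx-/- cells (55.5 to 76.6%) and in 28.2% of the gated WT cells (18.6 to 39.5%). Below the gate, 25 of 140 Mkx-/- cells had Spp1 reads, a share of 17.9% (11.9 to 25.2%). The summed level was 177.96 CPM in the gated Mkx-/- cells (168.4 to 187.96), 67.1 CPM in gated WT cells (60.96 to 73.6) and 10.98 CPM in Mkx-/- cells below the gate (8.65 to 13.7). Within the 56 positive Mkx-/- cells the lowest Spp1 level was 11.9, the median 116.1 and the highest 3280 CPM. Most positive cells therefore held few reads and a small number held many. Their median was 8 Spp1 reads, 5 cells had 1 read, and the top 4 cells, the first with 236 reads, carried 48.1% of the 1286 reads. Of the positive cells, 34 had 1 to 9 reads and 22 had 10 or more.

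**Figure D1:**
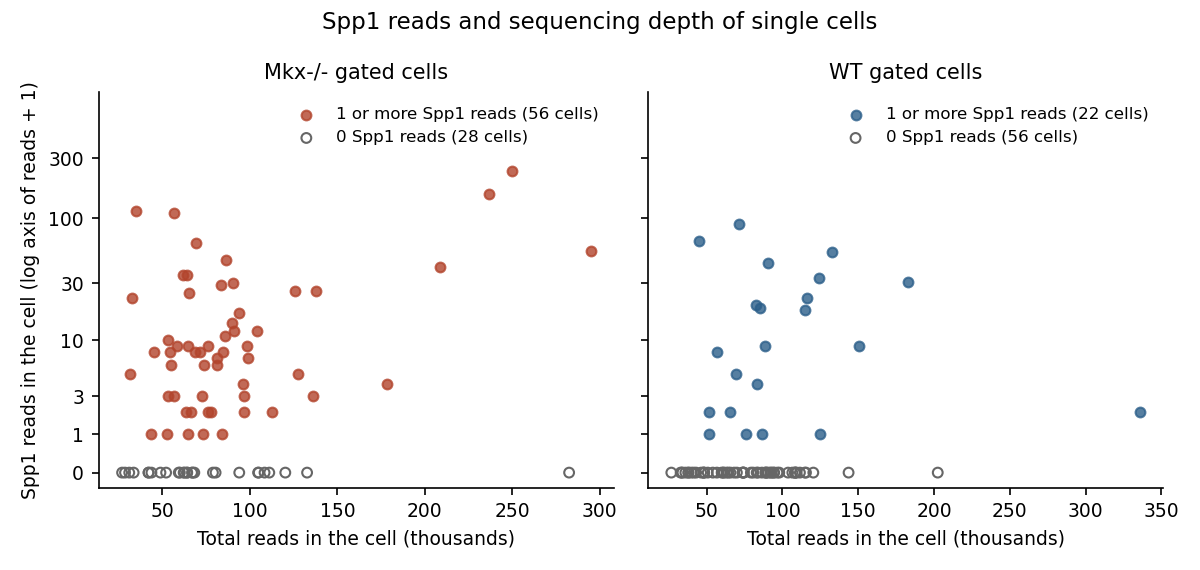
Spp1 reads (y axis, log scale of reads + 1) against total reads divided by 1000 (x axis) for each gated cell, Mkx-/- on the left and WT on the right. Filled points are cells with Spp1 reads and open points are cells with none. Positive and negative cells overlap in depth, and the highest Mkx-/- cell reaches 236 Spp1 reads.

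The positive Mkx-/- cells were sequenced somewhat more deeply. Their total reads had a median of 76933 (31455 to 294791), against 64105 (26925 to 282471) in the cells without Spp1 reads, and the ranges overlapped almost fully. The median number of genes detected was 3409 against 2997. When each of the 84 cells was thinned at random to the lowest total, 26925 reads, 47 cells still had Spp1 reads and 9 had moved to the negative side, a share of 55.95%, and the exact expectation was 56.5%. Under the same thinning, to 26755 reads, 16 of the 78 WT cells kept a Spp1 read (20.5%). The gate score did not separate the sides, with a median score of 12.33 in positive and 12.46 in negative cells. Tnmd stood at 4790 CPM in positive and 5085 CPM in negative cells, and Fmod at 5632 and 5954 CPM. These genes chose the cells and their values are a description. Of the other tenocyte markers of the study, Col1a1, Col1a2 and Sparc were read in 100% of the gated cells and Col11a2 in 48 of 56 positive and 20 of 28 negative cells. The scores just outside the gate were 9.06 and 9.998, the scores just inside were 10.08 and 10.50, and 5 cells lay within 1 unit of the gate. By score, Spp1 reads were found in 19.3% of 88 Mkx-/- cells from 6 to 8, in 4 of 9 cells from 8 to 10, in 76.9% of 26 cells from 10 to 12 and in 62.1% of 58 cells at 12 or more.

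Ratios near 1 were the rule for genes seen in most cells, and large ratios were found mainly in genes seen in few. A total of 6509 genes had at least 100 reads over the 84 cells, besides Spp1, Tnmd and Fmod. Their log2 ratio of summed CPM, cells with over cells without Spp1 reads, had a median of -0.01 and a standard deviation of 1.04. At least 2-fold higher with Spp1 reads were 839 genes (12.9%), and at least 2-fold lower were 630 (9.68%). Of genes with a read in fewer than 20% of the cells, 48.96% passed 2-fold in either direction, and the share was 29.6% from 20 to 40%, 11.8% from 40 to 60%, 4.67% from 60 to 80% and 0.688% at 80% or more. A stricter set kept only genes past 2-fold on the same side in 4 measures, the summed CPM, the mean of per-cell CPM, the thinned cells, and the sums without the leading cell of each side, and which were detected in 20% or more of the cells on the higher side. This set held 273 genes higher with Spp1 reads (4.19% of all compared) and a smaller number lower (2.67%). Their median detection was 25% of the cells, and 36 of them carried names of predicted genes or pseudogenes. No gene detected in 80% or more of the cells was among them. Of the 872 genes detected that broadly, 3 were 2-fold higher (0.344%) and 3 were 2-fold lower (0.344%) on summed CPM.

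**Figure D2:**
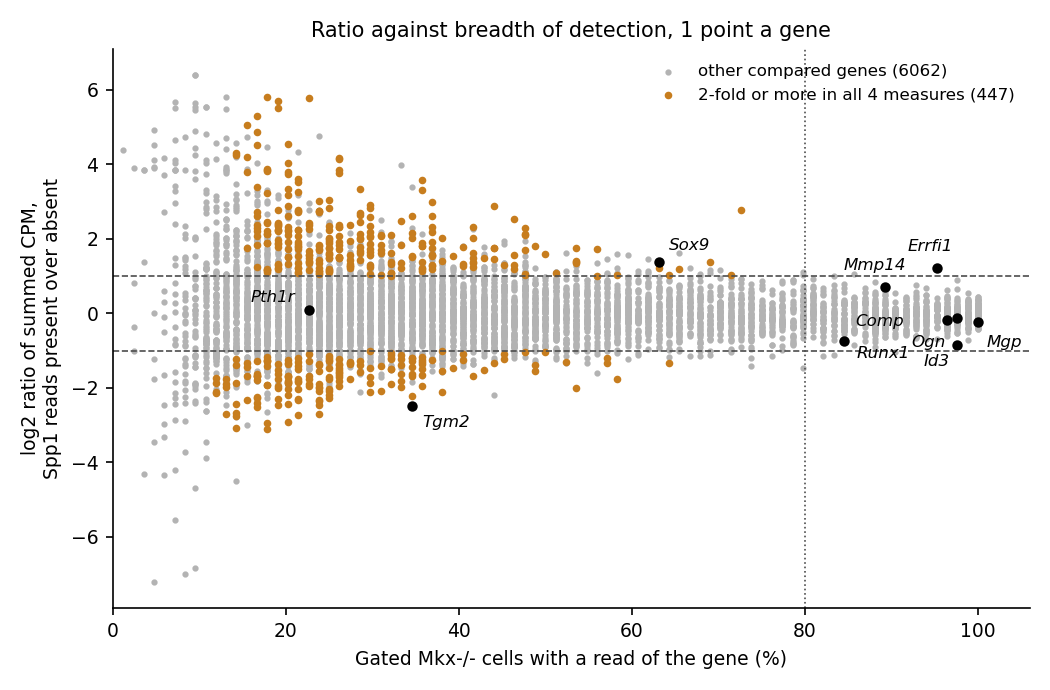
Each point is 1 of 6509 genes. The x axis is the share of gated Mkx-/- cells with a read of the gene and the y axis the log2 ratio of summed CPM, cells with over cells without Spp1 reads. Orange points passed 2-fold in all 4 measures, dashed lines mark 2-fold and the dotted line marks 80% of cells. The spread narrows from left to right, and Ogn, Mgp and Comp lie between the dashed lines.

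Ogn, Mgp and Comp, which the study groups as osteochondrogenic genes, were all within 2-fold between the sides, with lower sums in the cells with Spp1 reads. Ogn encodes osteoglycin, a small leucine-rich proteoglycan. It stood at 845 CPM with and 922 CPM without Spp1 reads, a log2 ratio of -0.13 (-0.20 to -0.05). Mgp, matrix Gla protein, an inhibitor of soft-tissue calcification, stood at 4242 and 5014 CPM (-0.24), and single cells ran from 195.1 to 15700 CPM with and from 749 to 23948 CPM without Spp1 reads. Comp, the pentameric cartilage oligomeric matrix protein, stood at 330 and 373 CPM (-0.17), but at 0.07 by mean of cells, with medians of 220.8 CPM at 0 Spp1 reads, 342 CPM at 1 to 9 and 274 CPM at 10 or more. The per-cell distributions of the 3 genes overlapped along nearly their whole range. Their median log2 ratio was -0.17, beside -0.01 for all compared genes. Of the 3 genes, 0 passed 2-fold, beside 12.9% higher and 9.68% lower over all genes. All 3 were broadly detected, however, and of the broadly detected genes only 0.344% were 2-fold higher and 0.344% lower. A count of 0 is therefore not particular to the osteochondrogenic genes. Across the bands of Spp1 reads, median Ogn was 762 CPM in cells with none, 574 CPM with 1 to 9 and 738 CPM with 10 or more.

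Genes of bone cells and bone matrix had few reads on both sides. Of 16 listed, 8 had no read in any of the 84 cells: Ibsp, Dmp1, Phex, Mepe, Ifitm5, Smpd3, Sost and Sp7, the last encoding osterix, a transcription factor that osteoblasts require. The whole list summed to 242 reads in the positive and 79 in the negative cells (47.6 and 36.9 CPM). Only Pth1r, the receptor of parathyroid hormone, reached 100 reads, with a log2 ratio of 0.09. Runx2, another factor required by osteoblasts, was read in 4.55% of the 22 cells with 10 or more Spp1 reads and in no other cell. Osteocalcin, a calcium-binding protein of bone matrix, had reads in a few cells. Bglap2 was read in 7.14% of the cells at 0 Spp1 reads, in 20.6% at 1 to 9 and in 4.55% at 10 or more, with 43 reads in positive and 6 in negative cells. Bglap was read in 3.57%, 5.88% and 4.55% of the cells of these bands, with 35 and 3 reads. Neither had enough reads to be compared.

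Of the 10 listed receptors of osteopontin, 6 were compared and 0 of these passed 2-fold, beside 12.9% of all genes higher and 9.68% lower. Cd44 had a log2 ratio of -0.18 (829 against 940 CPM) and Itgb1, the beta chain shared by many integrins, had the same, -0.18. Itgav, whose alpha chain pairs with several beta chains to bind the RGD motif of osteopontin, stood at -0.60, and its partner Itgb5 at -0.76. Itgb3 (0.92) and Itga9 (0.29) rested on few cells, and Itga9 had the other sign after thinning. Itga4 had no read.

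Among enzymes that act on osteopontin, Tgm2 was the 1 member of 4 compared that passed 2-fold in every measure. Over all compared genes, 4.19% passed every measure as higher and 2.67% as lower. On summed CPM, 1 of the 4 was 2-fold higher and 1 lower, beside 12.9% and 9.68% of all genes. Tgm2 encodes transglutaminase 2, which crosslinks osteopontin to itself and to other matrix proteins. Tgm2 stood at 21.4 CPM with and 120 CPM without Spp1 reads, a log2 ratio of -2.49 (-2.82 to -2.16). It was read in 15 of 56 positive cells, at up to 294 CPM, and in 14 of 28 negative cells, at up to 847 CPM, so the groups overlapped and most positive cells were at 0. The ratio ran from -2.79 to -2.09 over 15 settings. In WT the ratio was 0.63 by sum, 0.11 by mean of cells and -0.01 after thinning. Fam20c, the kinase that phosphorylates osteopontin and other secreted proteins, stood at 70.2 and 27.1 CPM (1.37), but at 0.20 after thinning. Mmp3, a stromelysin that cleaves osteopontin, stood at -0.56. Acp5, a phosphatase of osteoclasts that can dephosphorylate it, stood at 0.44, and at -0.27 without the leading cells. Mmp7, Mmp9 and F2, the gene of thrombin, had no read.

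**Figure D3:**
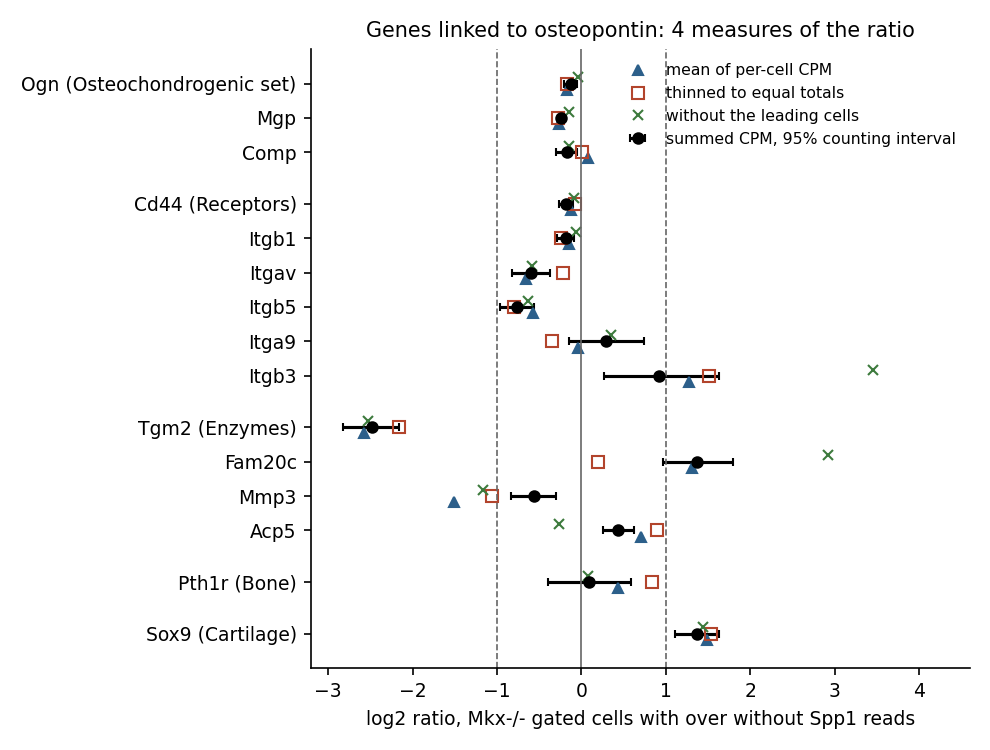
Log2 ratio (x axis), gated Mkx-/- cells with over without Spp1 reads, for genes linked to osteopontin, bone and cartilage. Black circles with bars are summed CPM with their 95% counting interval, triangles the mean of per-cell CPM, squares the thinned cells and crosses the sums without the leading cells. All 4 marks lie beyond 2-fold (dashed lines) for Tgm2 on the left and for Sox9 on the right.

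Sox9, a transcription factor required for cartilage and expressed in progenitors of tendon attachments, was higher in cells with Spp1 reads. It stood at 172.3 CPM with and 66.8 CPM without, a log2 ratio of 1.37 (1.11 to 1.63), and the ratio was 1.49 by mean of cells, 1.54 after thinning and 1.44 without the leading cells. Single positive cells ran from 0 over a median of 52.01 to 1594 CPM, and negative cells from 0 over 16.3 to 386 CPM. Sox9 was read in 37 of 56 and 16 of 28 cells, so detection was similar and the upper part of the distribution differed. The higher level lay mainly in the cells richest in Spp1: the mean was 65.6 CPM at 0 Spp1 reads, 90.1 CPM at 1 to 9 and 330 CPM at 10 or more. In gated WT cells, which the choice of Mkx-/- cells did not use, Sox9 was also higher with Spp1 reads, at 395 against 127.8 CPM (1.63), with medians of 249.8 and 32.01 CPM. Over all 15 alternative settings tried for it, the Mkx-/- ratio of Sox9 ran from 1.13 to 1.98. Of the 13 cartilage genes compared, 2 were past 2-fold higher and 0 lower, beside 12.9% and 9.68% of all genes. The other was Sox6, a partner of SOX9, with 100 reads in positive and 3 in negative cells (3.81), from 9 and 2 cells. The median over the 13 was 0.26, and -0.21 after thinning, and Col9a1, Col9a2, Matn1 and Col10a1 had no read. Sox9 is also among the genes the study measured in whole tail tendon of WT and Mkx-/- mice.

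Ptgs2, which encodes cyclooxygenase 2, the inducible enzyme of prostaglandin synthesis, showed the same pattern. It stood at 172.1 CPM with and 35.03 CPM without Spp1 reads (2.3, 1.95 to 2.66), with means of 43.5, 93.5 and 201.7 CPM across the bands. It was read in 35.7% of the cells with no Spp1 read, in 41.2% of those with 1 to 9 and in 72.7% of those with 10 or more. Its ratio ran from 1.36 among cells with fewer than 5000 genes detected to 3.39 among cells at or above the median total. In WT the levels were 160.2 and 53 CPM (1.6).

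Sox9 and Ptgs2 were 2 of 21 genes that passed 2-fold in all 4 measures on the same side in both genotypes. Of the 273 genes higher in Mkx-/- cells, taking those with enough reads in WT, 34 (16.4%) were also 2-fold higher there, while 23 (11.1%) were 2-fold lower. Over all genes compared in both genotypes, 11.3% were 2-fold higher in WT and 7.74% were lower. Of the lower genes that could be compared, 19 (15.2%) were also lower in WT and 20 (16%) were higher. The WT comparison itself had 732 of 5856 genes 2-fold higher (12.5%) and 532 lower (9.08%), so most genes past 2-fold in one genotype were not so in the other. The 15 genes higher in both were Eaf1, Galnt18, Gbe1, Got2, Il15ra, Kat7, Mdfic, Morc4, N6amt1, Nt5dc3, Ptgs2, Sdad1, Sox9, Trafd1 and Zfpl1. They are 7.25% of those compared and 6.36% of the 236 genes that met the rule in WT. The 6 lower in both, 4.8% of those compared, included Has1, Iqsec1, Itpr2, Psmd5 and Smo. The share of all genes compared in both genotypes that met this rule in WT was not worked out. Neither overlap can therefore be read as an excess. Has1, a hyaluronan synthase, stood at 35.4 against 102.8 CPM in Mkx-/- (-1.54) and at 18.4 against 39.8 CPM in WT (-1.12). Smo, the transducer of Hedgehog signals, stood at 19.1 against 45.8 CPM (-1.26) and at -1.23 in WT. The genes of both lists were named after their values were seen.

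The most broadly detected gene of the strict set was Il1rl1, the receptor of interleukin 33, which was also singled out after its values were seen. It stood at 521 CPM with and 75.7 CPM without Spp1 reads (2.78, 2.56 to 3.02), and at 1.78 after thinning. It was read in 43 of 56 and 18 of 28 cells, with medians of 94.2 and 15.5 CPM and highest cells of 7396 and 937 CPM. Its mean was 90.8 CPM at 0 Spp1 reads, 646 CPM at 1 to 9 and 541 CPM at 10 or more. The medians were 15.5, 82.9 and 98.5 CPM, and it was read in 64.3%, 73.5% and 81.8% of the cells. In WT, Il1rl1 stood at 161.9 and 166.4 CPM (-0.04).

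Among the broadly detected genes, per-cell medians could be compared as well as sums. The rule for naming these genes, the 10 highest and 10 lowest by mean of per-cell CPM with 1 sign in all measures, was also set after the data were seen. Errfi1, a feedback inhibitor of the EGF receptor, stood at 570 CPM with and 244 CPM without Spp1 reads (1.22, 1.09 to 1.36). The ratio of Errfi1 was under 2-fold by mean of cells (0.75), after thinning (0.85) and by the exact expectation of thinning (0.58). The cell medians of Errfi1 were 423 and 135.2 CPM, and 78.6% of the positive cells lay above the median of the negative cells. In WT it was 941 and 555 CPM (0.76). Mmp14, a membrane-bound collagenase, stood at 464 and 283 CPM (0.71), with medians of 461 and 128.7 CPM and 75% of positive cells above the negative median. Its band means were 270, 470 and 477 CPM, and its WT ratio was 0.00, with a mean of cells ratio of 0.44. Jak1 and Il6st, a kinase and a receptor chain of interleukin 6 family signalling, stood at 0.56 and 0.51. Of these, Jak1 was higher in WT as well (0.73), and Il6st was not (-0.04). The other genes in this group were Gnl3 (1.01), Prrc2c, Yipf5, Bzw1, Hspa9 and Nars, with ratios from 0.40 to 1.01.

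On the lower side stood Id3 and Runx1. Id3, an inhibitor of basic helix-loop-helix factors and a target of BMP signals, stood at 884 CPM with and 1593 CPM without Spp1 reads (-0.85, -0.91 to -0.78). Its median was 1259 CPM at 0 Spp1 reads, 710 CPM at 1 to 9 and 343 CPM at 10 or more, and 23.2% of positive cells lay above the negative median. Runx1, a RUNX factor of blood and skeletal progenitors, stood at 117.4 and 198.04 CPM (-0.75), with medians of 144.8, 108.1 and 47.5 CPM over the bands. Over the 15 settings the ratios ran from -1.02 to -0.47 for Id3 and from -0.88 to -0.59 for Runx1. In WT the ratio of Id3 was 0.76, and 0.41 after thinning. The WT ratio of Runx1 was 1.0, and 0.05 after thinning. Hes1, a target of Notch, was outside the naming rule and had means of 2059, 1797 and 376 CPM over the bands. The highest single Hes1 value, 16461 CPM, was nevertheless in a cell with Spp1 reads. Cryab, a small heat shock protein, stood at 686 and 1062 CPM (-0.63), and Aspn, asporin, at -0.47. Larp4b, Neat1, Atp6v0b, Laptm4b, Ndufa3 and Ltbp4 ran from -1.13 to -0.41.

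**Figure D4:**
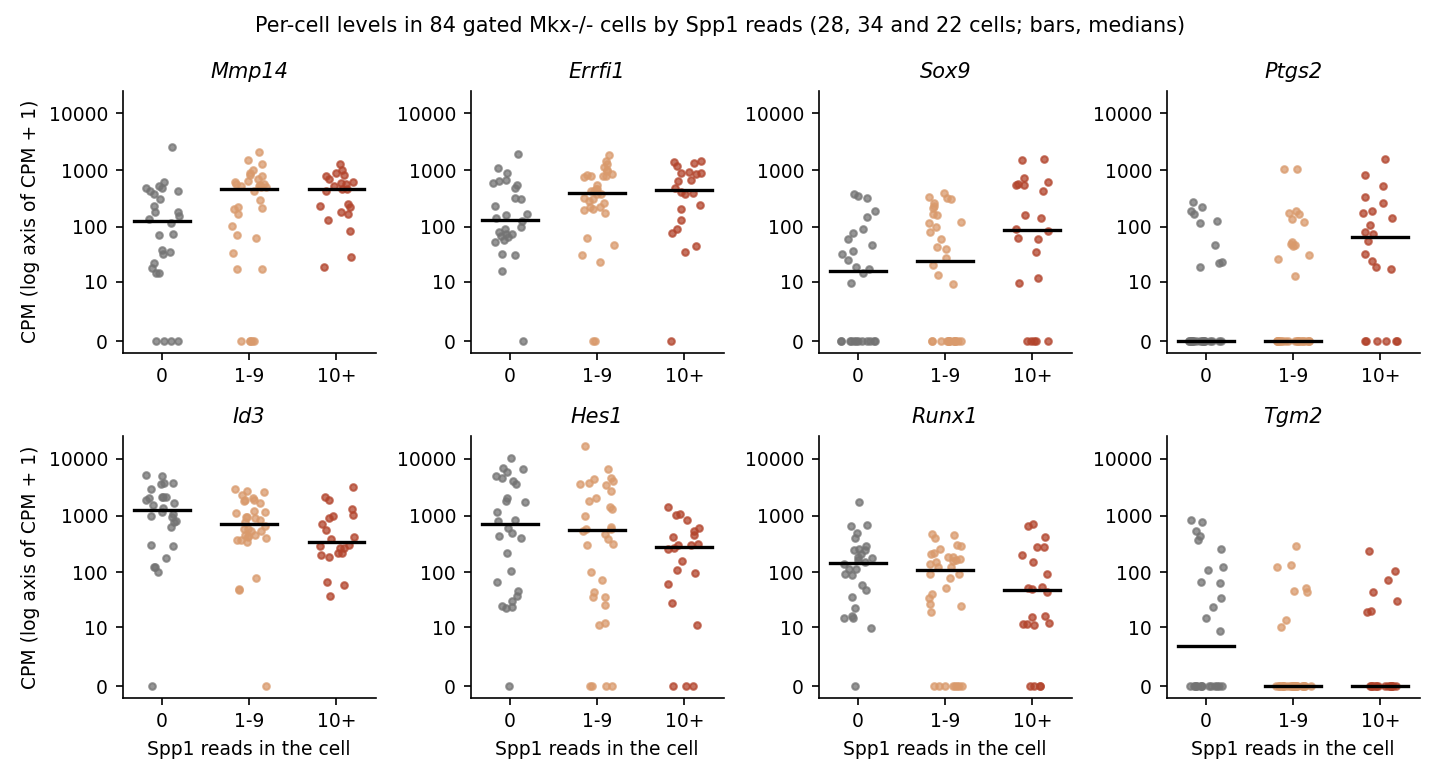
Per-cell CPM (y axis, log scale of CPM + 1) of 8 genes in the 84 gated Mkx-/- cells, grouped on the x axis by Spp1 reads of the cell (28 cells at 0, 34 at 1 to 9, 22 at 10 or more). Each point is a cell and bars are medians. Medians of Mmp14 and Errfi1 are higher in both positive bands, those of Sox9 and Ptgs2 mainly in the highest band, and those of Id3 and Runx1 are stepwise lower, while the cells of all bands overlap.

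Tendon matrix genes lay within a narrow range of ratios. Of 18 fibril collagens and small proteoglycans, all were compared and 0 passed 2-fold, with a median of -0.12. Over all compared genes, 12.9% were 2-fold higher and 9.68% lower. Among genes read in 80% or more of the cells, however, only 0.688% passed 2-fold in either direction. A count of 0 among abundant genes is therefore not particular to tendon matrix. Col1a1 and Col1a2, the chains of type I collagen, stood at 0.14 and 0.17, Sparc, a collagen-binding matricellular protein, at 0.12, and Dcn, decorin, at -0.32. Of 16 matricellular and crosslinking genes compared, 0 passed 2-fold, and of 5 progenitor markers named by the study (Cd44, Thy1, Ly6a, Fstl1 and Tppp3), 0 did. The genes set as markers of the progenitor side, 7 in number, had a median of -0.28, and 4 genes of the intermediate side a median of -0.43, with none of either past 2-fold.

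Transcription factors of the tendon lineage were read at low levels and in few cells. Of 7 compared, 3 were 2-fold lower and 1 was 2-fold higher, beside 9.68% lower and 12.9% higher over all genes. Their median of -0.79 was the ratio of Mkx itself, the gene that these mice lack. Six2, lower in all 4 measures, stood at 12 and 25.7 CPM (-1.10) and at -1.05 in WT, but at 3.11 when only cells at or above the median total were kept. Egr2 (-1.42) and Eya1 (-1.35) were lower and Eya2 (2.34) higher on summed CPM, each from at most 12 positive and 7 negative cells. Scx, scleraxis, stood at -0.15 (-0.43 to 0.14). Mkx itself still had reads in 14 of 56 positive and 8 of 28 negative Mkx-/- cells, at 23.8 and 41.1 CPM (-0.79). In WT it stood at 52.1 and 76.6 CPM. Where these reads fall relative to the deleted part was not analysed here, so they do not check the genotype.

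Members of signalling pathways are read here against the shares over all genes, 12.9% higher and 9.68% lower. In the BMP pathway, 3 of 16 genes were 2-fold higher and 0 lower, with a median of -0.02: the secreted antagonist Chrdl1 (1.42) and the receptors Acvr1 (1.36) and Bmpr1b (1.03). All 3 were under 2-fold after thinning, at 0.82, 0.91 and 0.23. In the TGF-beta pathway, 1 of 15 was higher and 1 lower, and the first, Smad2, passed every measure. Smad2, a receptor-regulated SMAD, had 170 reads in 18 positive cells and 4 reads in 4 negative cells (4.16, 2.78 to 6.05), and its WT ratio was 0.87 by sum and -0.40 after thinning. Of 8 genes listed for hypoxia, 3 were higher and 0 lower, with a median of 0.49. These were Epas1 (2.37), the glucose transporter Slc2a1 (1.07), and Adm (1.04), whose mean of cells went the other way (-0.09). Epas1 encodes HIF2-alpha, a hypoxia factor and not a target, and passed every measure. It was read in 21.4% of the cells at 0 Spp1 reads, 23.5% at 1 to 9 and 22.7% at 10 or more. The hypoxia median ran from 0.03 by the exact expectation of thinning to 0.88 without the leading cells, and was 0.59 in WT. Vegfa, the angiogenic factor, stood at -1.01 and at -0.07 after thinning. Of 9 Wnt genes, Lgr5 (2.10) and Fzd1 (1.79) were higher and 0 lower. Of 9 genes of the IGF system, Igf2 (3.24) was higher, from 7 and 2 cells.

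Matrix proteases and their inhibitors had 4 of 15 genes 2-fold higher and 0 lower, beside 12.9% and 9.68% of all genes. Timp1, an inhibitor of metalloproteinases, stood at 912 and 438 CPM (1.06), with band means of 471, 468 and 930 CPM. By mean of cells it was under 2-fold, at 649 and 471 CPM, and 85.7% of the cells on each side had reads. In WT it stood at 1690 and 708 CPM (1.26). Mmp23 (1.07), Adamts4 (1.56) and Mmp13 (1.30) were the others. Mmp13 was read in 4 and 2 cells, and its ratio had the other sign by mean of cells (-1.29). Of the 5 mineralization regulators compared, Ank, a transporter that delivers pyrophosphate precursors, was higher (1.15), and Phospho1 and Ahsg had no read. Of 8 CCN and YAP genes, Tead1 was higher (1.6). Of 27 genes of folding in the secretory pathway, Sec61a1 (2.95) was higher, from 12 and 3 cells, with a list median of -0.10.

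Of 16 stress and immediate early genes, 1 was higher and 1 lower, with a median of -0.12, beside 12.9% higher and 9.68% lower over all genes. Fos, an immediate early factor of AP-1, stood at 517 with and 1420 CPM without Spp1 reads (-1.46), with band means of 1240, 897 and 167.5 CPM, and at 589 and 1222 CPM in WT (-1.05). Its ratio after thinning was -0.80. Hsph1, a heat shock protein, stood at 1.06 and passed every measure. Pcna, the sliding clamp of DNA replication, stood at 55.7 and 18.7 CPM (1.57, 1.09 to 2.09), passed every measure and was read in 29 of 56 and 10 of 28 cells. Its WT levels were 52.1 and 25.9 CPM (1.01). Of 12 proliferation genes, however, only 2 had 100 reads, with a median of 1.08, and 0.82 after thinning, and Mcm2, Birc5 and Ccnb1 had none.

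The gene ontology sets that the study used held members on both sides. Of the ossification genes compared, 28 were 2-fold higher (15.4%, against 12.9% of all genes) and 17 lower (9.34%, against 9.68%), and 7 and 6 passed every measure. The higher ones were Asxl2, Cdk6, Dhx36, Mef2d, Ptgs2, Scube2 and Sox9, and the lower ones Npnt, Rorb, Six2, Smo, Tmem119 and Traf6. Of 51 bone mineralization genes, 13 were higher (25.5%) and 4 lower (7.84%), with 3 and 1 passing every measure, shares of 5.88% and 1.96% beside 4.19% and 2.67% of all genes. Of 5 osteoblast development genes compared, 1 was lower and 0 higher. The study took these sets from a public database and scored them in its single cells.

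The genes with the most extreme ratios were sparse. The 12 highest of the strict set, leaving out predicted genes, were Fbxl17, Lrrc42, Psd, Zfpl1, Tti2, Dvl1, Hpf1, Mapk4, Mrps25, Dis3, Zfp318 and Smad2, all with at most 4 reads in the negative cells. Fbxl17, the highest, stood at 26.2 CPM over 14 positive cells and had 1 read in 1 negative cell (5.81, 3.30 to 11.12), and the ratio was 2.46 after thinning. The thinned ratio was 1.65 for Lrrc42 and 1.43 for Zfpl1. Mapk4 stood at 32.4 CPM over 14 positive cells and at 0 reads in the negative cells. Its log2 ratio was 4.53 with the negative side set to a floor of 3 reads. The lower end of its counting interval, which does not use the floor, was 4.22. After thinning, where cells that lost their Spp1 reads count as negative, the ratio was 1.94. Dvl1, a transducer of Wnt signals, had 45.9% of its positive reads in 1 cell. The 12 lowest included Rbfa, Tmed8, Vwa1, Iqsec1, Med20, Gosr2, Amz2, Akap12, Tgm2, Ube2o and Tmem63a, with ratios from -3.11 to -2.46. Each had reads in 6 to 15 positive and 6 to 14 negative cells. For Vwa1, a matrix protein of cartilage and nerve, the levels were 13 and 99.5 CPM (-2.94), and its WT ratio was 2.90 by sum, -0.21 without the leading cells and -2.63 after thinning.

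Lists of markers of other cell types were summed in each cell. Schwann and nerve genes summed to 475 CPM in positive and 29.4 CPM in negative cells, but the median over cells was 0 with and 11.7 CPM without Spp1 reads. One positive cell led the list, at 9966 CPM in sum, with 902 reads of Mbp, a component of myelin, the second highest number of Spp1 reads and 6120 genes detected. Without that cell, an alternative chosen after seeing the data, the list median went from 4.17 to -1.77, and the number of genes 2-fold higher from 839 to 805. The macrophage list had 75 reads in positive and 4 in negative cells, with C1qa, C1qc and Adgre1 at 0 and the highest cell at 234 CPM in sum. Of 9 osteoclast markers, Mmp9, Calcr, Oscar and Dcstamp were at 0, and the sums were 1452 and 1330 CPM, most of it Ctsk (1219 and 1109 CPM). Endothelial markers had 79 and 20 reads, erythroid 12 and 0, and skeletal muscle 0 and 1. Epidermal and adipocyte lists had 24.8 and 57.9 CPM and 25 and 57.9 CPM. Mural genes summed to 155.7 and 50.9 CPM, with Acta2, smooth muscle actin, at 2.08 and at 0.50 after thinning, while Myh11, Notch3, Kcnj8 and Abcc9 were at 0. The part of doublets in these values was not tested.

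Broadly detected genes can also be set beside WT one by one. Over the 872 genes, the ratios in the Mkx-/- and WT cells had a Spearman correlation of 0.09 and a Pearson correlation of 0.09, given as a description across genes, which are not independent. The WT and Mkx-/- cells share no library. Of the named genes, Errfi1, Gnl3, Jak1, Nars and Bzw1 were higher in both genotypes in all 4 measures, and Ndufa3 and Ltbp4 were lower in both. Yipf5 (0.10 and, after thinning, -0.10) and Aspn (-0.42 and 0.25) varied in sign in WT.

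**Figure D5:**
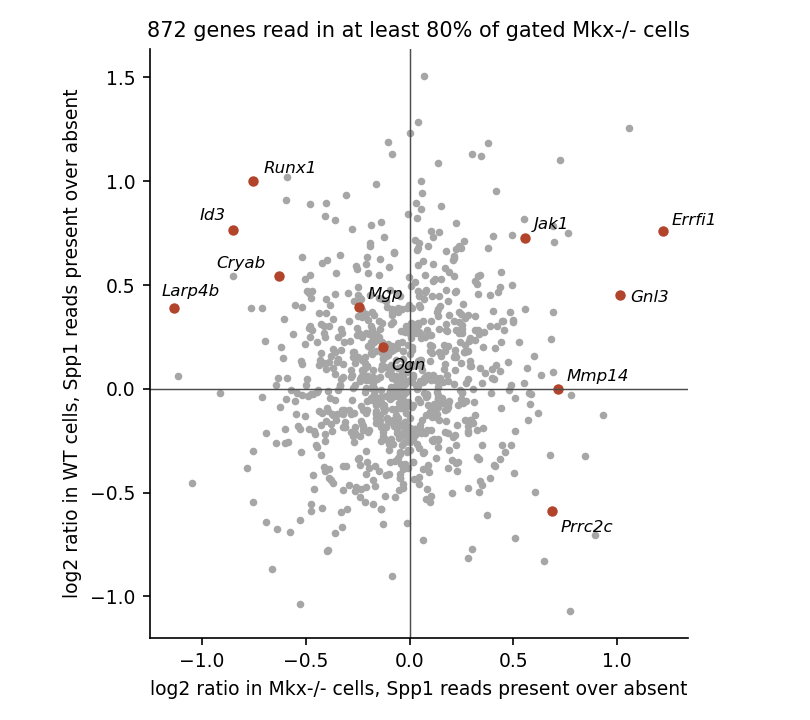
Log2 ratio of summed CPM, cells with over cells without Spp1 reads, in Mkx-/- (x axis) and WT (y axis) for 872 genes read in at least 80% of gated Mkx-/- cells. Each point is a gene and red points are named genes. The cloud has no clear slope, Errfi1 lies high on both axes, and Id3 and Runx1 are negative in Mkx-/- and positive in WT, where Runx1 is at 0.05 after thinning.

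In a principal component analysis of the thinned cells, the groups were not separated. The first component held 5.57% of the variance and had medians of 6.88 with and -4.41 without Spp1 reads, inside ranges of -68.7 to 49.6 and -47.2 to 39.3. Over the 84 cells its correlation with the number of genes detected was 0.82, with total reads 0.58 and with the gate score -0.61. Depth and gate score thus moved with the first component, and their part in it was not tested. The fourth component, with 2.09% of the variance, had medians of -4.84 with and 5.07 without Spp1 reads. Its ranges also overlapped, at -29.0 to 49.4 with and -24.9 to 40.5 without. Its correlation with total reads was -0.22.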

How the data were processed

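Raw read counts per gene and cell were deposited by the authors, whose notes and methods name bowtie2 and featureCounts. Their methods give the genome as mm9 and their processing notes as mm10, so no gene positions were taken from the counts. The counts are of reads without molecular identifiers, strand and the handling of multiply placed reads are not given in the sources used here, and bowtie2 does not split reads over introns. The table held 48795 symbols with 0 unnamed rows, and 0 columns were left unused. Gated cells held 26755 to 335813 reads.

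Here, counts were summed over cells and scaled to a library size of 1e+06 reads (CPM) with numpy 2.4.6, scipy 1.17.1 and pandas 2.3.3. Ratios have exact conditional binomial intervals, levels Poisson intervals and shares Clopper-Pearson intervals, all at 95%. A side with 0 reads entered a ratio as 3 reads, and a gene with 3 or fewer reads on both sides got no ratio. Genes with at least 100 reads over the gated cells were compared. Cells were thinned without replacement to the lowest total, before the split by Spp1 reads. Principal components used the 1000 most variable genes. The scripts were tested on simulated data. TMM factors came from edgeR 4.0.16 (R 4.3.3). No doublet caller was run.

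Named were the 12 highest and 12 lowest genes past 2-fold in all 4 measures, without predicted genes, every member with 100 reads of the osteochondrogenic, receptor, enzyme and bone lists, members of other lists needed to describe them, and Mkx, Tnmd, Fmod and Spp1. The cells, the 37 gene lists and the comparisons were chosen with earlier results of these data known. Alternatives were the depth, gate, Spp1 threshold, cell weights, left-out cells, scaling and read filter. Upstream windows were taken from RefSeq. Some genes that these rules name are not reported here.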

Additional observations from a re-analysis of the deposited data

Results flagged for a closer look

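Among the 74 genes named by rule, 55 could be compared in WT as well, and 13 of these had ratios of opposite sign in Mkx-/- and WT cells, in all 4 measures and with counting intervals that left out 0. The same held for 663 of the 5352 genes compared in both genotypes (12.4%). Many of the named genes were chosen for having 1 sign in all 4 measures in Mkx-/- cells, and the 5352 were not. The 2 shares are therefore not like for like, and the named share cannot be read as an excess. The difference between genotypes was not tested, since each is 1 sample. As log2 ratios of cells with over cells without Spp1 reads, the values in Mkx-/- and then WT were as follows. Higher in Mkx-/- and lower in WT were Scube2 (1.92 and -1.56) and Prrc2c (0.69 and -0.59). Lower in Mkx-/- and higher in WT were the regulators Id3 (-0.85 and 0.76) and Runx1 (-0.75 and 1.0, the latter 0.05 after thinning), and the matrix inhibitor of calcification Mgp (-0.24 and 0.39). The osteopontin receptors Cd44 (-0.18 and 0.37) and Itgb1 (-0.18 and 0.21) also had this order. The others were Cryab (-0.63 and 0.54), Larp4b (-1.13 and 0.39), Neat1 (-0.60 and 0.34), Atp6v0b (-0.76 and 0.39), Akap12 (-2.52 and 0.73) and Med20 (-2.75 and 0.53). The medians over cells showed the same order for Id3, at 567 and 1259 CPM in Mkx-/- and 676 and 375 CPM in WT, and for Runx1, at 66.6 and 144.8 CPM and then 173.2 and 63.8 CPM.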

How the results depend on the processing

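The share of cells with Spp1 reads kept within its counting interval under every alternative but the threshold of 10 or more Spp1 reads (26.2%). The median of Ogn, Mgp and Comp stayed within its interval, from -0.25 to -0.10. Genes 2-fold higher and lower were 2509 and 1751 with a filter of 20 reads, 3076 and 2660 with 1 read, and 3 and 3 among genes in 80% of cells, an alternative chosen after seeing the data. Genes higher were 557 with 10 or more Spp1 reads, and 1447, beside 462 lower, without the leading cells, where 1 cell is a larger share of 28 than of 56. The strict set was 650 higher and 300 lower in cells at or above the median total. It was 413 and 290 when measured in thinned cells. There the sum, the mean of cells and the thinned value coincide, so fewer separate measures had to be passed than for the main set. With 2 or more Spp1 reads 441 were higher, and with 10 or more 337 were lower. For these 2 thresholds, cells that lost all Spp1 reads on thinning were left out and not moved to the negative side, unlike in the main set. The TMM scaling shifted every ratio by 0.07 and gave 924 higher and 550 lower. In cells at or above the median total, Six2 went to 3.11 and Npnt to 0.47. The Schwann list, led by 1 cell, went to -1.32 without leading cells, -1.64 in cells under 5000 genes and -1.77 without that cell. Signs also varied over the settings for Acp5, Aspn, Comp, Il6st, Itga9, Itgb3, Ltbp4, Mgp, Mmp3 and Pth1r. No paired analysis was possible because the cells carry no shared replicate numbers and no result comes from a test. Depth limits genes read in few cells, where 1 cell can hold most reads of a gene, and the cause of the changes above was not tested.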
